A study of Mus musculus with 8 samples.

Results

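The immunoglobulin genes described here are the rows of the deposited expression table whose biotype is immunoglobulin constant gene or immunoglobulin variable gene, 231 of 54532 rows. They comprise 13 constant genes (8 heavy chain, 1 kappa and 4 lambda) and 218 variable (V) genes (113 heavy chain, 102 kappa and 3 lambda). RNA of brown adipose tissue, the heat-producing fat, was sequenced from mice of 2 genotypes with 4 libraries each, numbered 1, 2, 3 and 5 in the labels. The WT group is labelled wild type, and the TG group is labelled CLCF1-ATG, a transgenic line whose name refers to the cytokine CLCF1 of the interleukin-6 family. The sources used here give no promoter or cell type for the transgene and neither sex, age nor strain, and no treatment separates the groups. The study asked how brown fat dysfunction arises in the transgenic mice; the comparison below asks where antibody transcripts stood between the genotypes.

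An antibody is built from heavy chains joined to light chains of the kappa or lambda type. In a developing B cell, a V segment is joined to short D and J segments upstream of a constant gene, so each B cell and its descendants express a single heavy and a single light V gene. Naive B cells splice 1 heavy-chain transcript to the constant genes Ighm and Ighd, giving IgM and IgD. Plasma cells, the secreting descendants, raise antibody transcripts strongly, stop making IgD, and may have switched to the IgG, IgA or IgE constant genes. Resting adipose tissue holds few such cells, and adipocytes are not known to express antibody genes.

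V genes arose by duplication, so reads of 1 gene can match another. Of the 218 V genes, 166 had a coding sequence at least 90% identical to that of the nearest other gene, 107 were at least 95% identical, and 87 shared at least 1 stretch of 100 bases with another gene. The first 300 coding bases of 3 pairs of close genes are shown because their values are set side by side below. The sequences are the GENCODE M21 transcripts on GRCm38, 5′ to 3′ on the coding strand, and capitals mark the bases that differ within a pair. Iglv1 (chr16:19085017-19085500, minus strand) and Iglv2 (chr16:19260401-19260859, minus strand) are lambda V genes differing at 8 of 300 bases.
Iglv1: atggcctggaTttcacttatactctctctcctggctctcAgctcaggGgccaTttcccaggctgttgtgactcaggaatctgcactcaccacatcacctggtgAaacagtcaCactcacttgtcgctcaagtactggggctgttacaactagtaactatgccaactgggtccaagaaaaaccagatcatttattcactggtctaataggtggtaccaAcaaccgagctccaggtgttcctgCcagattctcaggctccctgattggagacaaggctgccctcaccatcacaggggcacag
Iglv2: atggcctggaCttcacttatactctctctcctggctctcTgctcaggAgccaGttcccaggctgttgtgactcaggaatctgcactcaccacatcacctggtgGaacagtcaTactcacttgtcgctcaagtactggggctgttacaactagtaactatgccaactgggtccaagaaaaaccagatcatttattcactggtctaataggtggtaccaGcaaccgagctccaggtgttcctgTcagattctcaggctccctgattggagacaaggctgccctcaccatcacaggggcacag

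Iglc2 (chr16:19198396-19200351, minus strand) and Iglc3 (chr16:19065230-19065681, minus strand), the closest pair of constant genes, differed at 11 of the 300 bases shown.
Iglc2: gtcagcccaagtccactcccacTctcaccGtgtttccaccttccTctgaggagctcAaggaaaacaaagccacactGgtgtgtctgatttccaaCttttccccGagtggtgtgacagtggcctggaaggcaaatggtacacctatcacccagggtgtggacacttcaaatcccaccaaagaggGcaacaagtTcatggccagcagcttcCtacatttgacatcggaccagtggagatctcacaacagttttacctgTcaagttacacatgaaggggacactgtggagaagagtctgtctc
Iglc3: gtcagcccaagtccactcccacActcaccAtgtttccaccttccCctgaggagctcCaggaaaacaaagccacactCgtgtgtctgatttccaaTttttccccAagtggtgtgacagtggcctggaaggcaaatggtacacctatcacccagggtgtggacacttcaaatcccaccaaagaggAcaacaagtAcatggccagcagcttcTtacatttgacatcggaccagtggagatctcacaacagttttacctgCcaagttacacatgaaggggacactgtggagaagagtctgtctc

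Igkv3-2 (chr6:70698449-70699067, plus strand), the V gene with the highest mean level, and its nearest relative Igkv3-1 (chr6:70703578-70704177, plus strand) differed at 21 of the 300 bases shown.
Igkv3-2: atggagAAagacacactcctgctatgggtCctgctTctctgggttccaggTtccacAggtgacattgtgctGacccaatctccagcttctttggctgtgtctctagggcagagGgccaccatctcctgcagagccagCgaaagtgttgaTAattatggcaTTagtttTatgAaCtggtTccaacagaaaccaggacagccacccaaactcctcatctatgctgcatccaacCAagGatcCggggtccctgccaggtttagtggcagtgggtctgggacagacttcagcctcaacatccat
Igkv3-1: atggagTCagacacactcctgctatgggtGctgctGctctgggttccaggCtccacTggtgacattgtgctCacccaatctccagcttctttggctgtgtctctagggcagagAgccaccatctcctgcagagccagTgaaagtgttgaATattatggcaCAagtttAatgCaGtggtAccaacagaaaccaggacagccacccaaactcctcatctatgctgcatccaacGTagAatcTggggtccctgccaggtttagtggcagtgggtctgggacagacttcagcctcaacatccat

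Reads recovered from the deposited values totalled 13734231 to 15751302 per library in WT and 18494022 to 20183840 in TG. Clcf1, the gene named in the genotype, stood at 0.434, 2.02, 3.40 and 2.75 FPKM (fragments per unit of gene length, divided by a library total that the authors chose) in WT 1, 2, 3 and 5, and at 86.2, 83.0, 78.7 and 89.9 FPKM in TG 1, 2, 3 and 5. The groups did not overlap (exact two-sided permutation test, p = 0.0286, the smallest value that 4 against 4 allows; limma log2 change 4.87, Benjamini-Hochberg adjusted p = 3.66e-06). The brown fat gene Ucp1 averaged 1420 FPKM in WT and 82.8 in TG, and the adipocyte gene Adipoq averaged 650.3 and 1864 FPKM. Mitochondrial reads made up 24.1% to 37.5% of a WT library and 6.09% to 7.34% of a TG library.

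Antibody transcripts were rare in WT brown fat and about 10 times as abundant in TG. Constant genes summed to 51.0, 26.6, 32.2 and 27.7 FPKM in WT 1, 2, 3 and 5, and to 526, 258, 223 and 376 FPKM in TG 1, 2, 3 and 5, a ratio of means of 10.1. No TG library overlapped the WT range. In reads, constant and V genes together took 0.00326% to 0.00543% of a WT library and 0.0303% to 0.0757% of a TG library. The groups were also apart when mitochondrial reads were left out of the total. In bulk tissue, more cells of a type and more RNA per cell cannot be told apart.

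The test across the whole table covered 12508 genes that reached 0.5 FPKM in no fewer than 4 libraries, of which 44.1% were called in either direction and 22.3% were called higher in TG (limma, Benjamini-Hochberg adjusted p under 0.05). Of the 231 immunoglobulin genes, 19 passed that filter, 15 of them were called higher and 0 lower, and 4 were not called. At an unadjusted p under 0.05 the limma counts were 17 higher and 0 lower, and limma's voom on the recovered reads also called 0 lower. Of the 212 genes not tested, 101 had no read in any library. Most of these genes passed with the help of their TG values: 0 of the 10 tested V genes and 2 of the 9 tested constant genes (Ighm and Igkc) had 0.5 FPKM in every WT library, so the share called among them is a description of the filter as well as of the genes. Over all 231 genes, tested or not, 18 had every TG library above every WT library and 0 had every TG library below. Several of the 18, such as Igkv4-91 and Ighv1-9, had no WT read, and such genes cannot lie below WT. The matching shares over all rows are not given here. Among all tested genes 22.1% had every TG library above every WT library, and among the 19 tested immunoglobulin genes the count was 8.

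The calls divided by how much they rested on single libraries. For 9 genes (Ighm, Igkc, Iglc1, Iglc2, Iglc3, Iglv1, Igkv3-2, Igkv3-4 and Igkv5-39) the call was kept under every alternative that tested them. The other 6 called genes each lost the call when some single library was left out. The count fell to 9 without TG 2 and was 14 without TG 5. Of the 9 genes above, only Ighm and Igkc had 0.5 FPKM in every WT library. Igkv3-4 and Igkv5-39 had no WT library at 0.5 FPKM. For these genes and for Iglc1, Iglc2, Iglc3, Iglv1 and Igkv3-2, the TG libraries alone were enough to pass the filter. The fits without a library kept the genes filtered on all libraries. The kept calls of the genes that their TG libraries passed are therefore not independent of that filter.

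**Figure D1:**
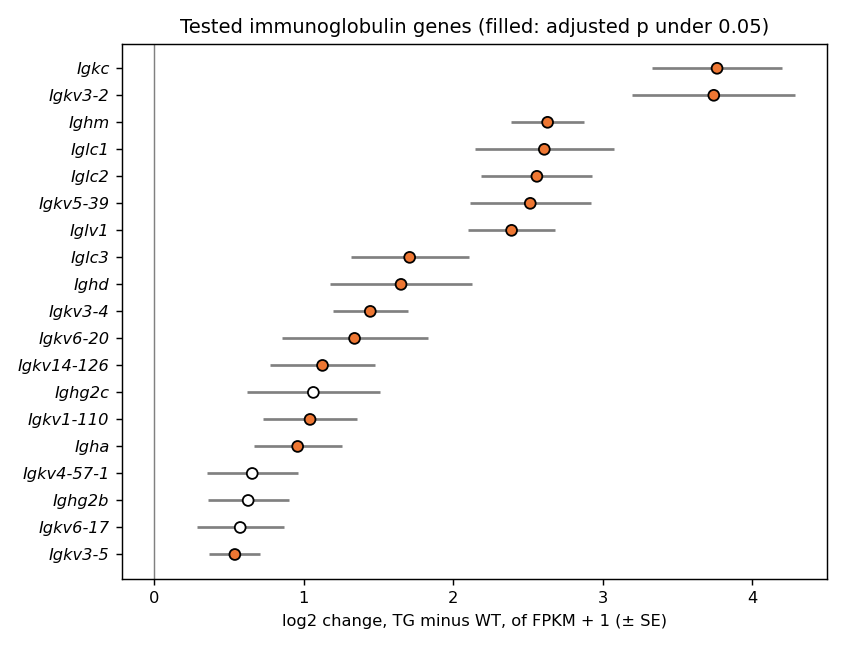
Log2 change (TG minus WT, of FPKM + 1) with its standard error for the 19 tested immunoglobulin genes, filled where the limma adjusted p was under 0.05. All 19 lie to the right of 0, from 0.54 for Igkv3-5 to 3.76 for Igkc. Most of them passed the filter with the help of their TG values, which favours a change above 0.

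Among the heavy chain constant genes, Ighm (chr12:113418558-113422730, minus strand), which encodes the mu chain of IgM, led in every library. Ighm stood at 25.0, 17.6, 16.4 and 15.2 FPKM in WT 1, 2, 3 and 5, and at 190.2, 90.5, 91.2 and 123 FPKM in TG 1, 2, 3 and 5. The lowest TG library was above the highest WT library, and the means were 18.5 ± 4.40 and 124 ± 46.8 (SD, n = 4 each), a ratio of 6.67. The log2 change was 2.63 with a standard error of 0.25 (limma adjusted p = 3.46e-05; 0.000222 without TG 5). Ighm made up 86.6% to 99.3% of the summed heavy constant FPKM in WT and 89.2% to 96.4% in TG, so IgM dominated the heavy chain transcripts in both groups.

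Ighd (chr12:113406604-113416324, minus strand), the delta chain of IgD and a mark of naive mature B cells, divided the TG mice. It stood at 0.134, 0.274, 0.633 and 0.322 FPKM in WT 1, 2, 3 and 5, and at 4.31, 6.19, 5.23 and 0.276 FPKM in TG 1, 2, 3 and 5. TG 5 lay inside the WT range and the other 3 TG libraries were above it. Ighd was called higher (log2 change 1.65, standard error 0.47, limma adjusted p = 0.0185), and without TG 5 the log2 change was 2.22 (adjusted p = 4.38e-05). The call was lost without TG 1, TG 2 or TG 3, with no filter, with voom and with array weights, with an adjusted p of up to 0.0740. As a share of Ighm FPKM, Ighd was 2.26%, 6.84% and 5.74% in TG 1, 2 and 3 and 0.224% in TG 5, against 0.537% to 3.86% in WT.

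The constant genes of switched antibodies were low in both groups. Igha, the alpha chain of the mucosal antibody IgA, stood at 0, 0.669, 0.536 and 0.589 FPKM in WT 1, 2, 3 and 5, and at 1.29, 2.57, 0.656 and 3.30 FPKM in TG 1, 2, 3 and 5. TG 3 fell just inside the WT range and TG 5 was the highest. Igha was called higher (log2 change 0.96, limma adjusted p = 0.0249), and the call was lost without WT 1, TG 2 or TG 5, without WT 2 and TG 5 together, with no filter and with a pseudocount of 0.01 (0.0622 without TG 5; highest over its alternatives 0.0942).

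The 4 IgG genes summed to 0.0317, 0.285, 0.340 and 1.44 FPKM in WT 1, 2, 3 and 5, and to 8.48, 2.16, 2.31 and 1.08 FPKM in TG 1, 2, 3 and 5. TG 5, at 1.08, was below WT 5, and TG 1 was far above the rest. Ighg2c stood at 0, 0.0561, 0.340 and 0.856 FPKM in WT 1, 2, 3 and 5, and at 6.14, 1.28, 1.32 and 0.329 FPKM in TG 1, 2, 3 and 5. Its log2 change of 1.06 did not pass the test (limma adjusted p = 0.0789), and without TG 5 it did (1.40, adjusted p = 0.0256), as it did after division by all recovered reads (0.0405) and with voom (0.0466). Ighg2b stood at 0.0317, 0.111, 0 and 0.587 FPKM in WT 1, 2, 3 and 5, and at 1.94, 0.688, 0.850 and 0.130 FPKM in TG 1, 2, 3 and 5. It too missed the threshold with all libraries (log2 change 0.63, limma adjusted p = 0.0867) and passed without TG 5 (0.85, adjusted p = 0.0210), without WT 5, without WT 2 and TG 5 together, after division by all recovered reads (0.0431) and with voom (0.0412). Ighg2c and Ighg2b encode the gamma chains of 2 IgG subclasses and lie next to each other in the locus.

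The remaining heavy constant genes stayed below the filter. Ighg3, a further IgG subclass, had 4 WT reads, all in WT 2, and 74 TG reads with 0.401, 0.188, 0.0697 and 0.625 FPKM in TG 1, 2, 3 and 5. Ighg1 had 4 reads, all in TG 3. Ighe, the constant gene of IgE, had no read in any library; 3 reads over the WT group would have given 0.0379 FPKM. Together the switched genes (IgG, IgA and IgE) made up 0.126% to 11.6% of heavy constant FPKM in WT and 2.98% to 4.78% in TG, and these ranges overlap.

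**Figure D2:**
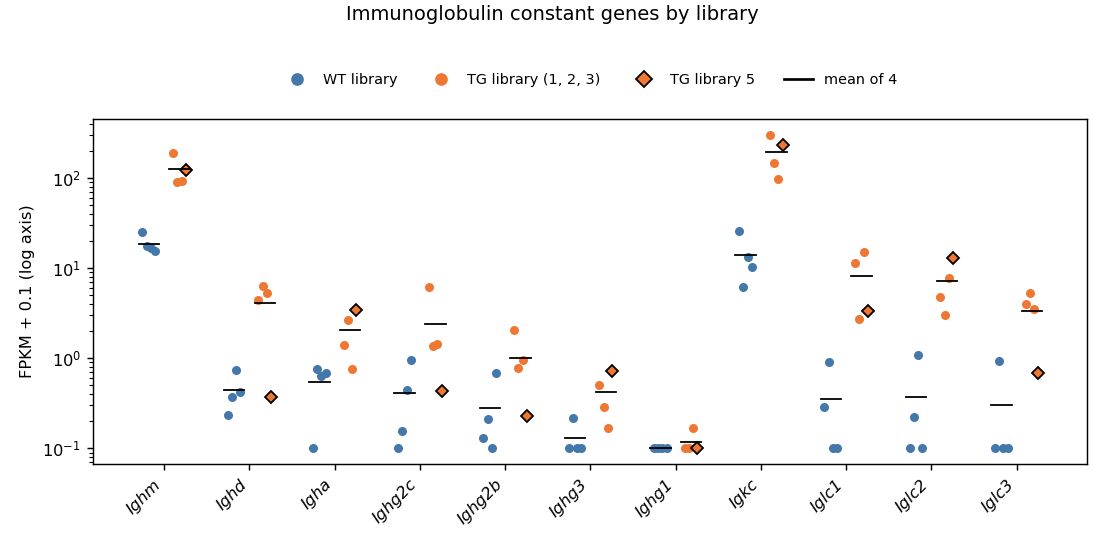
FPKM + 0.1 of the 11 immunoglobulin constant genes with reads, on a log axis, for each WT library (blue) and TG library (orange, TG 5 as a diamond), with a bar at each group mean. Ighm, Igkc, Iglc1 and Iglc2 have no overlap between the groups, and TG 5 lies within the WT points for Ighd, Ighg2c, Ighg2b and Iglc3.

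As ratios of TG to WT means, the kappa and lambda constant sums (14.1 and 24.9) were larger than the heavy constant sum (6.71); the difference between these ratios was not tested. Igkc (chr6:70726435-70726966, plus strand), the single kappa constant gene, stood at 25.7, 6.01, 13.3 and 10.2 FPKM in WT 1, 2, 3 and 5, and at 302, 146, 97.4 and 232 FPKM in TG 1, 2, 3 and 5. The groups did not overlap, and the means were 13.8 ± 8.47 and 194 ± 90.7 (SD, n = 4 each), a ratio of 14.1. On the log2(FPKM + 1) scale Igkc had a change of 3.76 with a standard error of 0.43 (limma adjusted p = 0.000128; 0.000653 without TG 5), the highest value of the 19 tested immunoglobulin genes and within its error of the 3.74 of Igkv3-2. That scale understates the change of low genes: by the ratio of means, Igkv3-2 (41.1), Iglc1 (31.8), Iglc2 (25.4) and Iglc3 (15.8) were among the genes above Igkc. These ratios rest on few WT reads, 9, 6, 9 and 5 in the same order. The ratio of Igkc to Ighm FPKM was 0.341 to 1.03 in WT and 1.07 to 1.88 in TG. The 2 ranges lie next to each other, and whether the genotypes differ in this ratio was not tested.

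The lambda constant genes were near the detection limit in WT. Iglc1 stood at 0.187, 0.819, 0 and 0 FPKM in WT 1, 2, 3 and 5, and at 11.3, 2.60, 14.8 and 3.27 FPKM in TG 1, 2, 3 and 5 (log2 change 2.61, limma adjusted p = 0.00160). Iglc2 stood at 0, 0.121, 0.983 and 0 FPKM in WT 1, 2, 3 and 5, and at 4.73, 2.93, 7.65 and 12.8 FPKM in TG 1, 2, 3 and 5 (2.56, adjusted p = 0.000490). Both were apart in every library, with Iglc2 highest in TG 5. Its near copy Iglc3 stood at 0, 0.822, 0 and 0 FPKM in WT 1, 2, 3 and 5, and at 3.90, 5.12, 3.39 and 0.579 FPKM in TG 1, 2, 3 and 5 (1.71, adjusted p = 0.00651). TG 5 had the most Iglc2 and the least Iglc3 of the TG libraries, although the sequences printed above differ at only 11 bases. Iglc4 had no read in any library.

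The lambda constant sum was 0.733 ± 0.808 FPKM over the WT libraries and 18.3 ± 6.36 over the TG libraries (mean ± SD, n = 4), a log2 ratio of means of 4.64. WT 2 held most of the WT signal, and without WT 2 the log2 ratio was 5.55. Lambda made up 0% to 22.7% of light chain constant FPKM in WT and 6.19% to 20.996% in TG, so the balance of kappa and lambda did not separate the groups.

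Transcripts of V genes, which show the range of receptors, were almost absent from WT libraries. V genes held 35, 26, 28 and 9 reads in WT 1, 2, 3 and 5, and 1602, 491, 347 and 884 reads in TG 1, 2, 3 and 5. Kappa V genes summed to 4.10 FPKM on average in WT and 71.4 in TG, heavy V genes to 0.789 and 14.7, and lambda V genes to 0.363 and 11.3, ratios of 17.4, 18.7 and 31.2. Every TG library was above every WT library for each of the 3 chains. The lambda ratio was 23.6 without TG 5, and its log2 value of 4.97 became 5.87 without WT 1, which held most of the WT lambda reads. V reads per 100 constant reads were 2.02 to 5.05 in WT and 6.01 to 12.1 in TG, so WT libraries held fewer V reads for their constant reads.

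**Figure D3:**
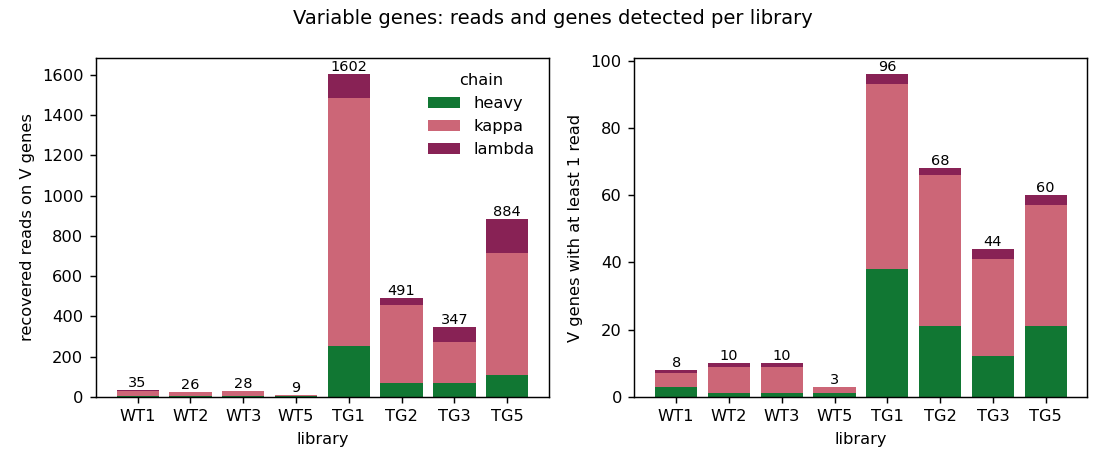
Recovered reads on V genes (left) and V genes with at least 1 read (right) in each library, stacked by chain. WT libraries hold 9 to 35 V reads on 3 to 10 genes, and TG libraries 347 to 1602 reads on 44 to 96 genes.

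At least 1 read fell on 8, 10, 10 and 3 V genes in WT 1, 2, 3 and 5, and on 96, 68, 44 and 60 V genes in TG 1, 2, 3 and 5. The number detected follows the number of reads, so the V reads of each library were also thinned to 9, the lowest total. At that depth the expected number of V genes was 4.78, 6.48, 6.32 and 3 in WT and 7.44, 7.53, 7.05 and 5.60 in TG, in the same order. TG 5 then lay inside the WT range, and the other TG libraries stood above it. Among the TG mice, 21 V genes had reads in all 4 libraries, 25 in 3, 37 in 2 and 35 in 1, and 100 had none. In WT, 0 V genes had reads in all 4 libraries and 22 had them in 1. Of all V genes, 93 had reads in TG only and 1 in WT only.

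Igkv3-2 was the V gene with the most reads in each of the 4 TG libraries. It stood at 2.02, 0, 0 and 0 FPKM in WT 1, 2, 3 and 5, and at 26.5, 9.24, 7.41 and 39.8 FPKM in TG 1, 2, 3 and 5 (log2 change 3.74, standard error 0.55, limma adjusted p = 0.000508). All 9 WT reads of Igkv3-2 came from WT 1, and the TG libraries held 722. It took 14.9% of V reads in TG 1 (95% exact Clopper-Pearson interval 13.2% to 16.8%), 15.1% in TG 2 (12.02% to 18.5%), 18.4% in TG 3 (14.5% to 22.9%) and 39.0% in TG 5 (35.8% to 42.3%). The interval of TG 5 did not touch those of the other TG libraries, and these intervals cover counting error only. Its relative Igkv3-1 had 9 reads, all in TG 1.

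The other kappa V genes called higher were led by Igkv5-39 and Igkv3-4. Igkv5-39 stood at 0, 0.428, 0 and 0 FPKM in WT 1, 2, 3 and 5, and at 11.7, 3.27, 2.02 and 8.30 FPKM in TG 1, 2, 3 and 5 (log2 change 2.51, limma adjusted p = 0.000910). Igkv3-4 had no WT read and stood at 3.73, 1.84, 1.22 and 0.848 FPKM in TG 1, 2, 3 and 5, at least 11.4-fold higher than 3 reads over the WT group would give (adjusted p = 0.00137). Both genes were apart in every library. Igkv14-126 stood at 1.90, 1.04, 0.630 and 0 FPKM in WT 1, 2, 3 and 5, and at 5.51, 2.90, 2.32 and 1.58 FPKM in TG 1, 2, 3 and 5 (log2 change 1.13, limma adjusted p = 0.0260). It had reads in 3 WT libraries, more than any other V gene, TG 5 lay below WT 1, and the call was lost without WT 3, WT 5, TG 1 or TG 2, with no filter and with pseudocounts of 0.1 and 0.01 (highest adjusted p 0.112).

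Igkv1-110, Igkv6-20 and Igkv3-5 had smaller or less even differences. Igkv1-110 had a log2 change of 1.04 (limma adjusted p = 0.0236), lost without WT 3, WT 5, TG 1, TG 2 or TG 5, with no filter and with array weights (0.0526 without TG 5; highest 0.0739). Igkv6-20 had a log2 change of 1.34 (adjusted p = 0.0491), lost without WT 1, WT 2, WT 5, TG 2 or TG 5, without WT 2 and TG 5 together, with no filter, with the filter on the mean and with quantile normalisation (0.111 without TG 5; highest 0.184). Its coding sequence is 98.6% identical to that of Igkv6-29 and shares 50.8% of its stretches of 100 bases, so its value is uncertain. The same holds for Igkv3-5, which is 98.3% identical to Igkv3-10 with 23.1% of such stretches shared, for Igkv1-110, 97.2% identical to Igkv1-117 with 16.5% shared, and for Igkv6-17, 95.7% identical to Igkv6-25 with 21.4% shared. Igkv3-5 had a log2 change of 0.54 (adjusted p = 0.0275), lost without WT 1, WT 2, WT 5, TG 2, TG 3 or TG 5, without WT 2 and TG 5 together, with no filter and with quantile normalisation (0.0720 without TG 5; highest 0.145). Igkv4-57-1 and Igkv6-17 were tested and not called (log2 change 0.66 and 0.58, limma adjusted p = 0.109 and 0.137). Igkv4-57-1 passed without TG 3 (adjusted p = 0.0170), and Igkv6-17 without WT 3 (0.0468) or TG 5 (0.0217). Igkv6-20, Igkv3-5, Igkv4-57-1 and Igkv6-17 were picked for mention once their values were known.

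Some V genes were abundant in 1 TG mouse and scarce in the rest. Igkv4-91 had no WT read and stood at 18.04, 0.396, 0.489 and 0.487 FPKM in TG 1, 2, 3 and 5, and 154 of its 165 reads came from TG 1. Igkv4-55 had no WT read and stood at 14.5, 1.99, 0 and 0.230 FPKM in the same order. Neither reached the filter, so neither was tested, and against 3 reads over the WT group their TG means were at least 28.9-fold and at least 26.4-fold higher. The coding sequence of Igkv4-55 is 95.7% identical to that of Igkv4-71, with 17.8% of its stretches of 100 bases shared, so its value is uncertain.

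The 3 lambda V genes also differed in how they were shared. Iglv1 stood at 0.868, 0, 0.192 and 0 FPKM in WT 1, 2, 3 and 5, and at 9.33, 3.02, 5.60 and 5.13 FPKM in TG 1, 2, 3 and 5 (log2 change 2.39, limma adjusted p = 0.000175). It was apart in every library and even among the TG mice. Iglv2 had no WT read and stood at 2.06, 0, 2.27 and 14.4 FPKM in TG 1, 2, 3 and 5, at least 28.6-fold higher than 3 reads over the WT group would give. Most Iglv2 signal came from TG 5, the library that also had the most Iglc2. Iglv1 and Iglv2 share 1.98% of their stretches of 100 coding bases, so most such stretches hold a base that differs. Reads that cover no differing base cannot tell them apart. Iglv3 had 2 WT reads and stood at 1.10, 1.36, 0.919 and 0.115 FPKM in TG 1, 2, 3 and 5.

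No heavy V gene reached the filter. The 113 heavy V genes had 4, 2, 4 and 5 reads in WT 1, 2, 3 and 5, and 250, 70, 67 and 109 reads in TG 1, 2, 3 and 5, on 38, 21, 12 and 21 genes. The family Ighv1, the largest heavy V family with 53 of the 113 genes, held 57.1% of the pooled TG heavy V reads. Its reads numbered 133, 39, 33 and 78 in TG 1, 2, 3 and 5. Ighv1-53 led with no WT read and 6.09, 2.29, 0 and 1.12 FPKM in TG 1, 2, 3 and 5, at least 13.9-fold higher than 3 reads over the WT group would give. Ighv1-9 also had no WT read and stood at 0.956, 0.269, 2.0 and 1.62 FPKM, at least 7.07-fold higher. Ighv1-26 and Ighv1-18, whose nearest relatives are each other, had 22 and 21 TG reads and no WT read. The leading heavy V gene thus differed between TG mice, with TG 3 lacking Ighv1-53.

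Antibodies that bind phosphatidylcholine, known from B-1 cells, often pair Ighv11-2 with Igkv14-126 or Ighv12-3 with Igkv4-91, and these genes were looked up after other values had been seen. Ighv12-3 had 18 reads in TG 1, 3 in TG 3 and none in the other 6 libraries, and TG 1 was also the library with 154 Igkv4-91 reads. Ighv11-2 had 3 WT reads and 7, 1, 4 and 0 reads in TG 1, 2, 3 and 5. Its coding sequence is 98.9% identical to that of Ighv11-1, with 24.8% of its stretches of 100 bases shared, so its value is uncertain. Bulk sequencing does not show which heavy and light chains share a cell.

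Position along the locus gave no single pattern. Dividing the kappa V genes into 3 equal groups by distance from Igkc, the nearest group held 47.6% of TG kappa V reads, the middle 23.1% and the farthest 29.3%. These reads were pooled over the TG mice, which differed. The nearest and farthest groups held 34.0% and 38.2% in TG 1, and 69.2% and 13.7% in TG 5. Igkv3-2, 27.9 kb from Igkc, held 722 of the 1157 reads of the nearest group, and without it the pooled shares were 25.4%, 32.9% and 41.6%. Heavy V genes ordered by distance from Ighm held 25.8%, 38.7% and 35.5% of TG heavy V reads from the nearest to the farthest group. V genes with TG reads numbered 18, 17 and 17 in the heavy groups and 22, 20 and 21 in the kappa groups, so expressed V genes came from the whole of both loci.

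**Figure D4:**
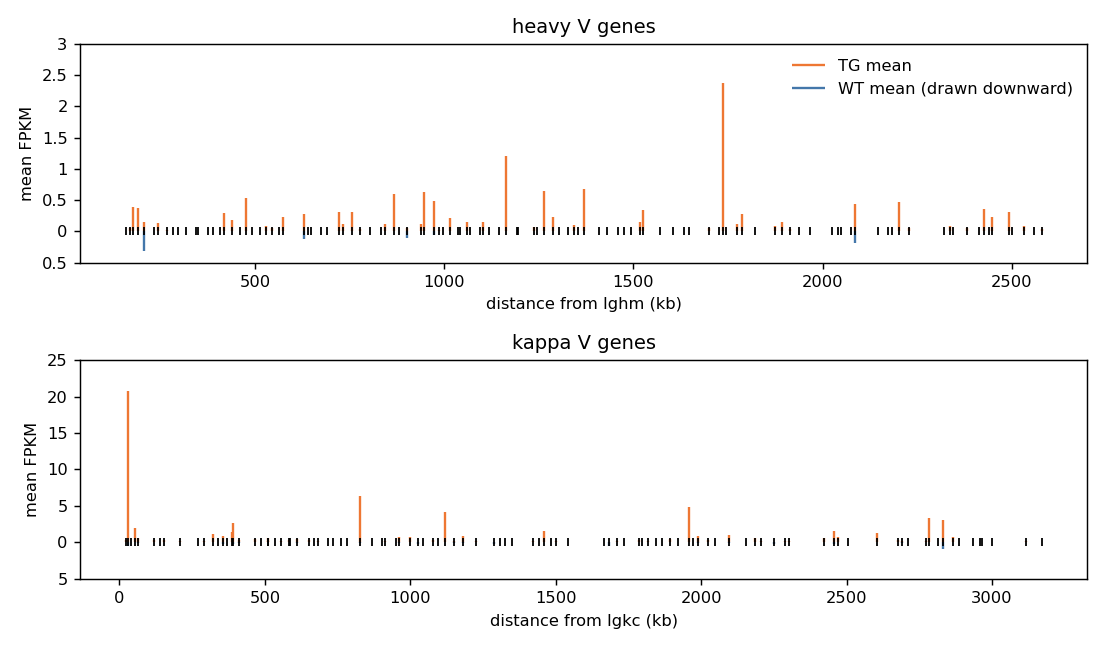
Mean FPKM of each heavy V gene by distance from Ighm (top) and each kappa V gene by distance from Igkc (bottom), with TG drawn upward, WT drawn downward and a black tick at every gene. Igkv3-2, 27.9 kb from Igkc, averages 20.7 FPKM in TG, and no heavy V gene exceeds 2.38.

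Several listed genes of antibody secretion were higher in TG, and TG 5 was not uniform across them. Of 19 listed plasma cell genes 15 were tested, of which 7 were called higher, 1 lower and 7 not called. Over all tested genes 22.3% were called higher and 44.1% in either direction. The median log2 change of the list was 0.43, against 0.01 over all tested genes. Jchain, the chain that joins IgM and IgA into polymers, stood at 1.82, 1.54, 2.15 and 2.50 FPKM in WT 1, 2, 3 and 5, and at 26.5, 19.7, 24.6 and 34.1 FPKM in TG 1, 2, 3 and 5 (log2 change 3.17, limma adjusted p = 1.87e-06). TG 5 was the highest. Across the 19 listed genes, 8 were lowest and 3 highest in TG 5 among the TG libraries, and 11 were in TG 5 within or below the WT range. The matching shares over all genes are not given here. Mzb1, a chaperone of IgM assembly, stood at 0.281, 0, 0.416 and 0 FPKM in WT and at 3.48, 1.46, 2.56 and 2.07 FPKM in TG, in the same order (1.51, adjusted p = 0.000256). Txndc5 (1.18, adjusted p = 7.21e-06) and Edem1 (1.36, adjusted p = 3.76e-05), which act in protein folding in the endoplasmic reticulum of many cell types, also rose. The list's other members called higher were Xbp1, Pou2af1 and Creld2, and Eaf2 was called lower (-0.39, adjusted p = 0.0139). The call of Creld2 was lost without WT 2, TG 1, TG 2 or TG 5 (0.0693 without TG 5), and that of Eaf2 without WT 2 and TG 5 together and under 2 scalings and voom (highest adjusted p 0.106). Sdc1, the surface marker syndecan-1, was not called (-0.54, limma adjusted p = 0.0821) except without WT 1.

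Most surface and signalling genes of B cells were at WT level in TG 5. The table holds 24 of the listed B cell markers, and 8 of these were tested. Of those tested, 5 were called higher (Cd79b, Fcrla, H2-Ob, Btla and Cd37), 0 lower and 3 not called, with a median log2 change of 0.75. Over all tested genes 22.3% were called higher and 44.1% in either direction. Cd79b, the partner of Cd79a, had the largest log2 change of the 5 (1.52, limma adjusted p = 0.00881, and 0.000115 without TG 5). The call of H2-Ob was lost without WT 3, WT 5, TG 1, TG 2 or TG 3 and that of Cd37 without WT 1, WT 2, TG 1 or TG 2 (highest adjusted p 0.0950 and 0.0700), and both were lost with no filter. Ms4a1, encoding CD20, stood at 0.0960, 0.108, 0.146 and 0.0565 FPKM in WT 1, 2, 3 and 5, and at 1.23, 1.29, 2.47 and 0.0917 FPKM in TG 1, 2, 3 and 5. It lacked the level to be tested, and TG 5 fell inside the WT range. Cd79a, a signalling chain of the B cell receptor, stood at 0.350, 0.408, 1.14 and 1.56 FPKM in WT and at 3.97, 5.54, 3.24 and 0.389 FPKM in TG; it was not called with all libraries (log2 change 1.05, limma adjusted p = 0.0783) and was called without TG 5 (1.53, adjusted p = 0.00212), without WT 2 and TG 5 together and under 2 scalings.

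Across the 24 B cell markers, 21 were lowest in TG 5 among the TG libraries, and 19 were in TG 5 within or below the WT range. Of these markers 16 were too low to be tested. The matching share over all genes and the counts for TG 1, 2 and 3 are not given here. The summed level of the list was 13.7 to 19.1 FPKM in WT, 34.3, 42.4 and 34.8 in TG 1, 2 and 3, and 19.0 in TG 5. TG 5 thus combined WT levels of most B cell markers and of Ighd with the second highest Igkc and Ighm of all libraries and the highest Jchain. Most of the plasma cell list did not go with Jchain: 11 of its 19 genes were also within or below the WT range in TG 5. The division was seen after the values were known and no test of it was made, since it rests on 1 mouse.

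**Figure D5:**
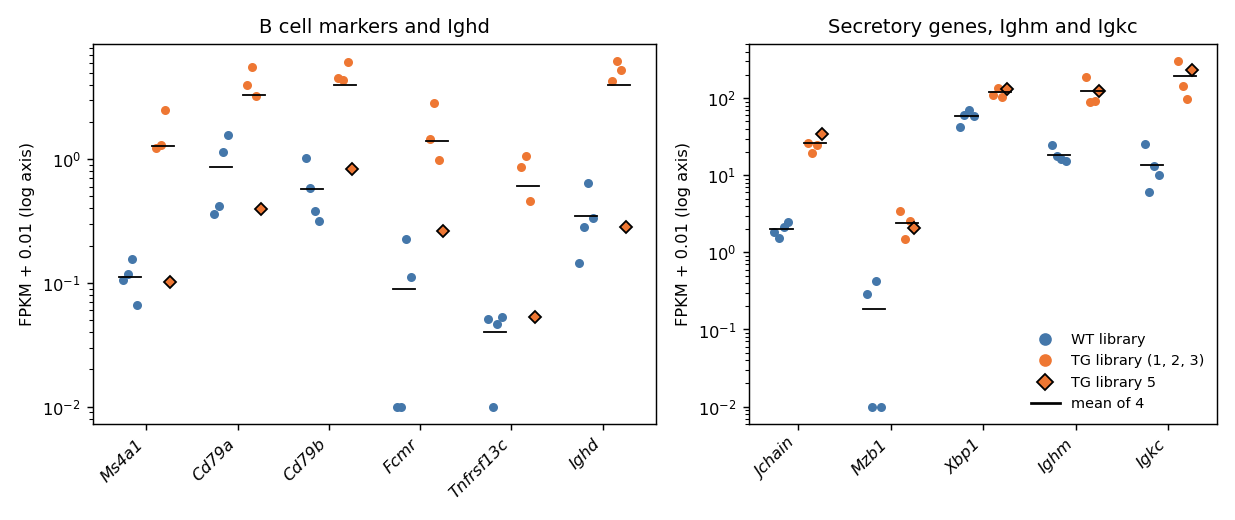
FPKM + 0.01 on log axes for B cell markers with Ighd (left) and for secretory genes with Ighm and Igkc (right), per library, with a bar at each group mean. TG 5 (diamond) lies at the WT points on the left, except Fcmr, where it lies just above them, and with the other TG libraries on the right. The right panel draws only some of the plasma cell list. Of the 19 genes on that list, 11 were within or below the WT range in TG 5.

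Early B cell genes were at or near 0 in TG, and 0 of 6 were tested. Igll1, which encodes a part of the surrogate light chain, had no read. Vpreb1 was at most 0.105 FPKM in TG and 1.20 FPKM in WT 1. Of the 8 listed genes of class switching and hypermutation 6 were tested, with 2 called higher, 2 lower and 2 not called. The shares over all tested genes were 22.3% higher and 44.1% in either direction. Msh6, a mismatch repair gene, had a log2 change of 0.81 (limma adjusted p = 0.000578), and Apobec1, a cytidine deaminase that edits RNA, one of 0.84 (adjusted p = 0.00102). Ung, which removes uracil from DNA in all cells, was lower (-0.66, adjusted p = 0.00217).

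Of 14 receptors that bind antibodies 8 were tested, with 2 called higher, 1 lower and 5 not called. Over all tested genes 22.3% were called higher and 44.1% in either direction, so these counts are near the background. Fcgr2b, the inhibitory IgG receptor, and Fcgr3, an activating IgG receptor, were higher with log2 changes of 0.67 and 0.51 (limma adjusted p = 0.0204 and 0.0357), and both calls were lost without TG 5 (0.0543 and 0.0982). That of Fcgr2b was also lost without WT 2 or TG 1, that of Fcgr3 without WT 1, WT 2, WT 5, TG 1 or TG 3, and both with no filter. Cd300lg, an endothelial surface gene, was lower (-1.12, limma adjusted p = 0.0341), a call lost without WT 1, WT 2, WT 5, TG 3 or TG 5 (0.0786 without TG 5), with no filter, with voom and under 3 scalings. Pigr, which carries IgA and IgM across epithelia, had no read, and Fcgrt, the IgG recycling receptor, stood at 109 to 147 FPKM in WT and 118 to 133 in TG.

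Among 27 genes of B lineage growth and homing 12 were tested, with 3 called higher, 3 lower and 6 not called. These counts are near the shares over all tested genes, 22.3% higher and 44.1% in either direction. Tnfsf13b, the B cell survival factor BAFF, stood at 0.358, 0.0325, 0.219 and 0.382 FPKM in WT 1, 2, 3 and 5, and at 1.84, 2.38, 2.03 and 2.23 FPKM in TG 1, 2, 3 and 5 (log2 change 1.33, limma adjusted p = 3.44e-05). Cxcl12, which holds plasma cells in marrow niches, rose (1.48, adjusted p = 0.000192), as did Cxcl13, the attractant of B cells to follicles (1.97, adjusted p = 0.00456). For these 3 genes TG 5 was level with the other TG libraries and the groups did not overlap. Il6 (-1.70, limma adjusted p = 0.0108), Tgfb1 (-1.30, adjusted p = 0.000321) and the integrin gene Itga4 (-0.33, adjusted p = 0.0353) were lower. The call of Itga4 was lost without WT 1, WT 2, WT 5, TG 1, TG 3 or TG 5 (0.103 without TG 5), with no filter, with a pseudocount of 0.01, with voom and under 2 scalings.

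Genes of T cells were also low in TG 5. Of 20 T cell genes 9 were tested, with 4 called higher (Cd3d, Cd8b1, Lck and Trbc2), 0 lower and 5 not called. Over all tested genes 22.3% were called higher and 44.1% in either direction. In TG 5, 16 of the 20 were lowest among the TG libraries. How often a gene of the whole table was lowest in TG 5 is not given here, and 11 of the 20 were too low to be tested. The 152 constant and variable genes of the T cell receptor, the closest relatives of the immunoglobulins in the table, had 3 tested and 1 called higher (Trbc2, log2 change 1.56, limma adjusted p = 0.00938). The calls of Cd3d, Cd8b1 and Lck were each lost without any 1 of WT 1, WT 2, WT 3, TG 1, TG 2 or TG 3 and with no filter (highest adjusted p 0.105, 0.115 and 0.103). T cell receptor genes summed to 6.72, 4.68, 2.50 and 12.8 FPKM in WT 1, 2, 3 and 5, and to 21.6, 23.9, 18.9 and 7.21 FPKM in TG 1, 2, 3 and 5. TG 5 was inside the WT range for T cell receptor genes, whereas its immunoglobulin sum of 480.1 FPKM was far above the WT maximum of 59.0.

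Other cell types differed between the groups as well, and their part in the immunoglobulin result was not tested. The counts below stand beside shares of 22.3% called higher and 44.1% called in either direction over all tested genes. Of 5 tested lymph node stroma genes 4 were called higher (Cxcl13, Enpp2, Clu and Ltbr), while the defining marker Ccl21a had reads only in WT 1 and TG 1, at no more than 0.417 FPKM. The stroma list summed to 74.3 to 87.1 FPKM in WT and 841 to 1017 in TG, most of it Clu, which many cell types express. Of 13 macrophage genes 6 were called higher, 0 lower and 7 not called, with sums of 246 to 407 FPKM in WT and 413 to 504 in TG. Of 5 tested neutrophil genes 4 were lower and Prtn3 was higher, and all 5 tested red blood cell genes were lower, Hba-a1 going from 1440 to 3870 FPKM in WT to 401 to 554 in TG. Of 11 brown adipocyte genes 8 were called lower and 0 higher, and of 10 genes shared by adipocytes 6 were called higher and 1 lower.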

How the data were processed

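Brown adipose RNA of 4 WT and 4 TG mice was sequenced; per the labels' protocols, total RNA was taken with Trizol and libraries made with an Illumina TruSeq RNA kit. The submitters' processing notes name bcl2fastq, HISAT2 2.0.5, featureCounts 1.5.0-p3 and build mm10 (GRCm38). Strand setting, annotation release and divisor were not given in the sources used here. In each mouse the authors deposited FPKM per gene, as 1 table whose columns name the mice. Multiplied by gene length, every value came to a whole number of equal steps (largest distance from a whole number 1.61e-07), which gave the reads. Their ratio to the implied divisor was 1.02 to 1.22 for WT libraries and 0.822 to 0.883 for TG libraries, which shows a scaling of the deposited FPKM beyond the library total. All 231 immunoglobulin genes were found in GENCODE M21 at the same coordinates.

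The fit used limma 3.58.1 under R 4.3.3 (intensity trend, two-sided) on log2(FPKM + 1), which understates changes of low genes, for genes with at least 0.5 FPKM in 4 libraries, with Benjamini-Hochberg adjustment over all genes tested. The procedure was also run on simulated reads that had the same spread for every gene, unlike the real genes. That outcome is not given here and bears on no result above. A floor is 3 reads over a group, and intervals are 95% exact Clopper-Pearson ones; both cover counting error only. Sums over genes were given with no test. Per the labels each group has 4 mice, and p-values rest on the spread among them; no batch is given and no library was left out.

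Genes named are Clcf1, every constant gene, per chain the 4 V genes with the highest mean and the 4 with the lowest p, the top V gene by FPKM of each library, from each list as many as 4 members of lowest p, members of counts of 5 or fewer, and defining markers; others were named after their values were seen; a few listed genes are counted but not reported here. The lists cover plasma cells, B cells, early B cells, class switching, antibody receptors, growth and homing signals, T cells, lymph node stroma, macrophages, neutrophils, red blood cells, brown adipocytes and shared adipocyte genes. The members and lists were chosen with earlier results of these data known. Near copies were sought with blastn 2.17.0 and by shared stretches of 100 bases. Figures were drawn with matplotlib 3.10.9.

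Alternatives were 2 pseudocounts, 3 filters, 5 scalings, 3 variance models, the replicate number as a block, omission of each library in turn, and omission of WT 2 with TG 5. The replicate numbers were not taken as pairs.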

Additional observations from a re-analysis of the deposited data

Results flagged for a closer look

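In 26 of 190 groups of 4 libraries, 1 library stood apart from the other 3 by Dixon's test. Chance singles out about 1 in 20 such groups, but a gene with reads in 1 library and none in the other 3 is always singled out. The 26 therefore cannot be set against that rate. Many of them are such genes. In TG 1 these were Igkv4-91 (18.04 FPKM; 0.396 to 0.489 in the other 3), Igkv4-55 (14.5; 0 to 1.99), Ighg2c (6.14; 0.329 to 1.32), Ighv5-6 (0.594; 0), Igkv4-50 (0.358; 0), Igkv4-79 (0.352; 0) and Ccl21a (0.417; 0). In TG 5 it was Iglv2 (14.4; 0 to 2.27), and in TG 3 Ighg1 (0.0675; 0). In WT 1 they were the heavy constant sum (25.1; 17.5 to 18.8), Igkv4-79 (2.13; 0), Igkv3-2 (2.02; 0), Vpreb1 (1.20; 0.0620 to 0.219) and Ccl21a (0.211; 0). In WT 2 they were Iglc3 (0.822; 0), Igkv5-39 (0.428; 0), Iglv3 (0.390; 0), Igkv4-57-1 (0.598; 0) and Ighg3 (0.118; 0). In WT 3 they were Cxcl12 (5.38; 8.65 to 9.32 in the other 3), Iglc2 (0.983; 0 to 0.121), Igkv4-50 (0.855; 0), Igkv6-20 (0.802; 0), Igkv6-17 (0.798; 0) and Igkv3-5 (0.591; 0). In WT 5 it was Ighv5-6 (1.24; 0).

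Reads also fell on the 33 joining and diversity segments, which the comparisons above do not use. They averaged 14.5 reads in TG (16, 20, 12 and 10 in TG 1, 2, 3 and 5), above the WT libraries (0, 0, 0 and 8 in WT 1, 2, 3 and 5). In FPKM, which divides by the very short segment lengths, their sum was 41.1 in WT 5, 0 in the other WT libraries and 11.5 to 22.3 in TG, so WT 5 was above every TG library on that scale.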

How the results depend on the processing

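No log2 change of the 19 tested immunoglobulin genes reversed under any alternative: of 420 values, 363 kept their side of the threshold, 45 lost the call and 12 gained it. Most of these genes passed the filter with the help of their TG values, so a change above 0 was favoured in advance. The number of genes called higher was 2788 as analysed, 1445 with a filter of 5 FPKM, 5287 with the rescaling without abundant genes, 5536 with division by all recovered reads and 5635 with voom; the number called lower was 2725, and 1703, 1546, 1442 and 1445 in the same order. The rescaling, the division by all reads and voom put the median log2 change over all tested genes, 0.01 as analysed, at 0.28, 0.32 and 0.45, and the immunoglobulin genes called higher numbered 15, 17 and 16 under them. With the filter of 5 FPKM 3 immunoglobulin genes were tested and all 3 were called higher; with a filter on a mean of 0.5 FPKM 29 were tested and 17 called. Leaving out each library gave 9 (without TG 2) to 14 immunoglobulin genes higher. The log2 ratio of the lambda constant sum was 4.64, ran from 4.22 to 5.55 (without WT 2) when each library was left out, and was 5.59 without WT 2 and TG 5. Libraries of the same number did not deviate together (correlations of deviations -0.19, -0.17, 0.04 and -0.24 for numbers 1, 2, 3 and 5), and no WT library correlated best with the TG library of its own number. With the replicate block, 2389 genes were higher and 2458 lower, and 15 immunoglobulin genes were higher, with Igkv6-20 lost and Igkv4-57-1 gained; the cause of these differences was not tested. WT libraries held 9 to 35 V reads, so at this depth the V genes of WT tissue are largely not detectable.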
